A study of Mus musculus with 7 samples.

Results

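The protocadherins measured here were the genes of the normalized count table whose symbol began with Pcdh. There were 68 of them among 19257 named genes, and 56 belonged to the gene clusters Pcdha (12), Pcdhb (22) and Pcdhg (22), while 12 stood outside any cluster (Pcdh followed by a number). Pcdha4, Pcdha6 and Pcdha7 were not analysed here. The libraries were poly(A) RNA-seq of brain tumor tissue from mice. In both groups, in utero electroporation with CRISPR-Cas9 had targeted genes that included Trp53 and Nf1 in neural progenitors, and a piggyBac construct carried a fluorescent reporter. The 3xCr group (replicates 2, 3 and 4, n = 3) carried only these edits and the reporter and served as the control, and the GPC6 group (replicates 1 to 4, n = 4) also overexpressed GPC6, a glypican, which is a proteoglycan anchored to the cell surface. Each library came from the tumor tissue of 1 brain at the end point, cut out with the help of reporter fluorescence. The study as a whole used both sexes and the CD-1 and C57BL/6 backgrounds. Sex and background are not stated here for single libraries. The tissue was not sorted, so each library holds tumor cells and host brain cells together. In such bulk samples fewer cells of a type and less RNA per cell cannot be told apart.

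Protocadherins are cell surface proteins of the cadherin superfamily. Clustered genes each have their own first exon and promoter, and within the Pcdha and within the Pcdhg cluster these first exons are spliced to a shared set of constant exons. In single neurons a few of these promoters are chosen at random, so that a cell carries its own combination of isoforms on its surface, which matches only the same combination on another cell and serves self-recognition of dendrites and axons. The last genes of the Pcdha and Pcdhg clusters, called C-type, are not part of that random choice. Non-clustered protocadherins are single genes with roles in axon growth, synapses and tissue boundaries.

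Between 7197692 reads (GPC6 replicate 1) and 18879762 reads (3xCr replicate 2) fell on genes, so 0 reads in a library allowed 1.64 to 4.64 normalized counts, which covers counting error only. Gpc6 stood at 217, 226 and 126 normalized counts in 3xCr replicates 2, 3 and 4 and at 675, 263, 3434 and 5084 in GPC6 replicates 1 to 4. The library labelled GPC6 replicate 2 was thus close to the 3xCr level. GPC6 replicate 1 stood apart in other ways: its 5 hypothalamic neuron markers summed to 1011 normalized counts against 12.1 to 27.5 in the other libraries, its 6 choroid plexus markers to 12585 against 34.0 to 3708, and its 6 proliferation markers to 479 against 3669 to 10301. The 10 neuron markers summed to 9320, 6245 and 5589 in 3xCr and to 56606, 6634, 28881 and 10592 in GPC6, with none at 0 in any library. Of these 10, all had a log2 fold change above 0 (48.3% of all genes tested), with a median of 1.50. By limma 2 had an unadjusted p under 0.05, both higher in GPC6 (2.74% of all genes tested). The 6 markers of oligodendrocyte precursors (OPC) summed to 53654, 35006 and 15737 in 3xCr and to 14116, 74713, 25814 and 31447 in GPC6. Brain cell markers were thus present in every library, in proportions that differed between animals of the same group.

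Clustered protocadherins were transcribed in every tumor, and 1 gene gave a large part of all their reads. Pcdhgc3, a C-type gene that acts in dendrite branching, stood at 3773, 2039 and 2202 normalized counts in 3xCr and at 1604, 4996, 1630 and 1620 in GPC6. It was highest in GPC6 replicate 2 and next in 3xCr replicate 2, the libraries with the highest and second highest sums of OPC markers, and the groups overlapped. The part of those markers in its level was not tested. Its log2 fold change (GPC6 minus 3xCr) was -0.26 (SE 0.46) by limma on log2(normalized count + 1), with an adjusted p of 0.87. As a share of the reads on all clustered protocadherins, Pcdhgc3 held 49.1%, 48.6% and 54.5% in 3xCr and 24.6%, 47.2%, 36.2% and 36.9% in GPC6. Every GPC6 library was below every 3xCr library in this share, a pattern looked at after its values were seen. The gap was narrow. The 95% Wilson intervals, which cover counting error only, overlapped for GPC6 replicate 2 (46.3% to 48.1%) and 3xCr replicate 3 (47.2% to 50.1%). With 3 against 4 libraries an exact permutation test of this share cannot go below a two-sided p of 0.057. Per kilobase of exon that no other protocadherin gene uses, its mean level was 994 normalized counts, far above the next genes in this order, Pcdhgc5 (111), Pcdh10 (93.5), Pcdh9 (77.7) and Pcdhb10 (70.7). The region that the submitters counted over is not given in the sources used here, so these levels per length rest on GENCODE exon lengths.

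The other C-type genes were less abundant and were not highest in the same libraries. Pcdhac2, which guides the spacing of serotonergic axons, had 94.3, 52.1 and 52.5 normalized counts in 3xCr and 247, 144, 149 and 76.1 in GPC6. Only GPC6 replicate 4 fell within the 3xCr range. By limma this gave a log2 fold change of 1.14 (SE 0.45), with an unadjusted p of 0.035 and an adjusted p of 0.73, so the difference did not pass the test over all genes. Pcdhgc5, known for its late onset in postnatal brain, had 181, 197 and 130 in 3xCr and 679, 314, 449 and 90.5 in GPC6. It was highest in GPC6 replicates 1 and 3, which also had the highest sums of neuron markers, and lowest in GPC6 replicate 4. Its log2 fold change was 0.87 (SE 0.63), within the spread between libraries. Pcdhgc4, needed for the survival of cortical interneurons, had 81.1, 41.9 and 27.6 in 3xCr and 138, 149, 38.1 and 24.7 in GPC6, with overlapping groups and a log2 fold change of 0.54 (SE 0.74). Pcdhac1 had 1.38 to 7.67 in 3xCr and 4.12 to 22.7 in GPC6, and its mean of 9.71 was just under the minimum mean of 10 for the test.

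**Figure D1:**
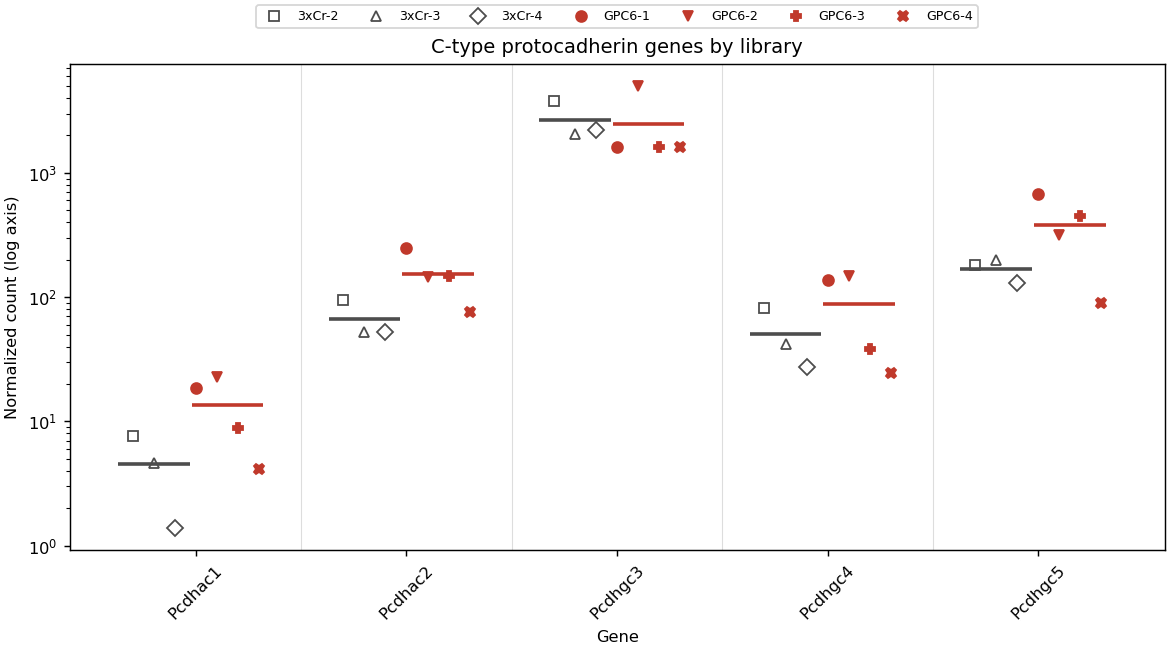
Normalized counts (log axis) of the 5 C-type genes in each library, open grey symbols for 3xCr and filled red symbols for GPC6, with short lines at the group means. Pcdhgc3 lies between 1604 and 4996 in every library, above all other C-type genes, and the groups overlap for each gene.

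Taking the genes together, 61 protocadherins had a mean of at least 10 normalized counts and were tested with limma, 49 of them clustered and 12 non-clustered. The 7 that were not tested were Pcdha1, the row listed as Pcdha7-g, Pcdha8, Pcdha9, Pcdhac1, Pcdhb1 and Pcdhgb8. None of the 61 reached an adjusted p under 0.05 by limma, against 0.0% of the 14782 genes tested, and 4 had an unadjusted p under 0.05 (6 by edgeR and 10 by DESeq2, where 6.7% and 12.1% of all genes did). The 4 were Pcdhac2, Pcdh8, Pcdhga3 and Pcdha12, all higher in GPC6, where 2.74% of all genes tested were called higher, 1.92% lower and 4.66% in either direction. DESeq2 gave an adjusted p for only 10 of the 61, and for none of the 4, and called 0 of those 10 (0.0998% of the genes with an adjusted p). With weights that let limma count some libraries less, 6 of the 61 passed an adjusted p of 0.05 (13.3% of all genes) and 12 an unadjusted one (34.5%). Without GPC6 replicate 1 the number at an unadjusted p under 0.05 by limma was 0 (3.14% of all genes), and without GPC6 replicate 4 it was 8 (7.83%). With each of the 7 libraries left out in turn, Pcdh8 kept an unadjusted p under 0.05 in 4 fits and Pcdhac2, Pcdhga3 and Pcdha12 in 2 each. Most members had a log2 fold change above 0, 47 of 61 (77.0%) against 48.3% of all genes, and the median was 0.51 for the clustered and 0.28 for the non-clustered genes, against -0.02 for all genes. By cluster, 7 of 7 Pcdha genes (median 1.14), 16 of 21 Pcdhb genes (median 0.40) and 16 of 21 Pcdhg genes (median 0.47) were on that side. These signs rested partly on GPC6 replicates 1 and 2, since the medians were 0.07 (clustered) and 0.12 (non-clustered) when both were left out, an alternative chosen after seeing the data. The log2 fold changes of the neuron markers above were also above 0. The 6 microglia markers went the other way, with 0 of 6 above 0, a median of -0.74 and 3 at an unadjusted p under 0.05 by limma, and their sums did not overlap (17695 to 33548 in 3xCr, 9892 to 15320 in GPC6). Of the 6 oligodendrocyte markers 0 were above 0, with a median of -0.76 and overlapping sums (62749 to 78587 in 3xCr, 12479 to 106054 in GPC6). The part of these cell types in the medians of the protocadherins was not tested.

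**Figure D2:**
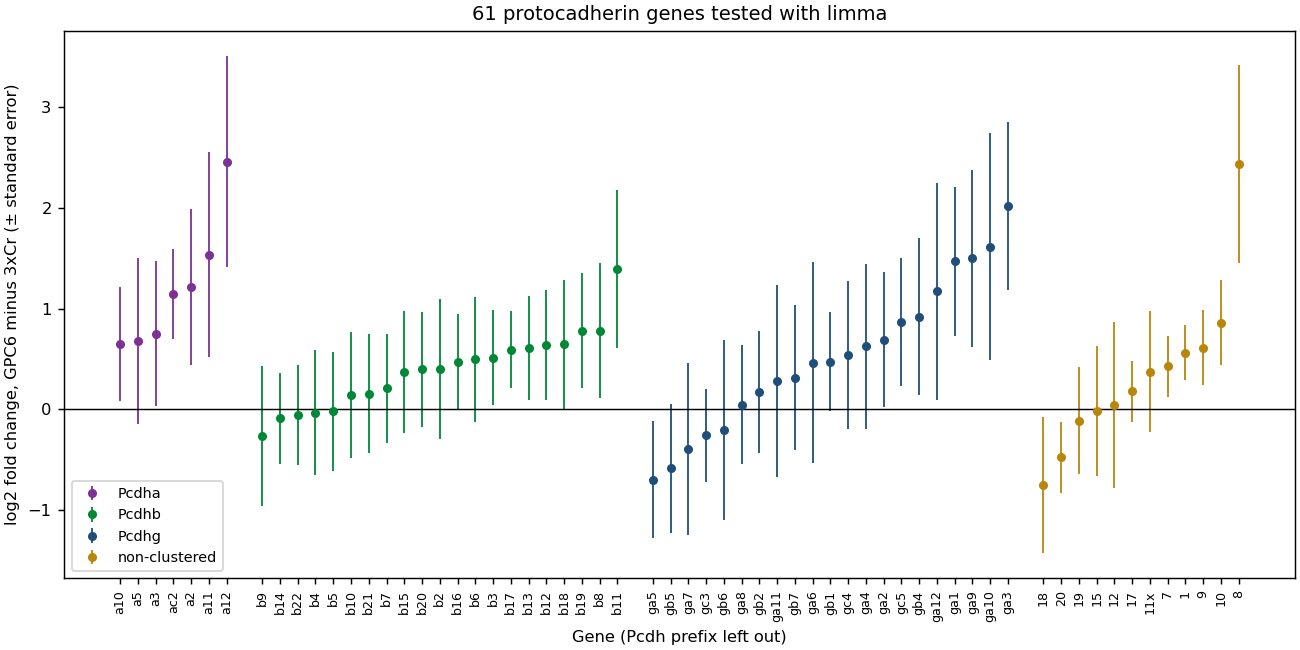
Log2 fold changes (GPC6 minus 3xCr) with their standard errors from limma for the 61 tested protocadherins, ordered by value within each family. Values run from -0.75 (Pcdh18) to 2.46 (Pcdha12), most lie above 0, and no gene passed an adjusted p of 0.05.

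Members were highest in GPC6 replicate 2 and in 3xCr replicate 2 more often than genes at large. Of the 61 tested members, 22 (36.1%) were highest in GPC6 replicate 1 and 20 (32.8%) in GPC6 replicate 2, against 31.3% and 12.2% of all genes tested. For GPC6 replicate 1 the share of members was thus near that of all genes. Another 9 were highest in 3xCr replicate 2 (4.72% of all genes), 5 in GPC6 replicate 4 (18.4%) and 3 in 3xCr replicate 4 (23.9%), and 3xCr replicate 3 (5.26%) and GPC6 replicate 3 (4.19%) had 1 each. By cluster, 9 of 21 Pcdhb genes were highest in GPC6 replicate 2 and 5 in 3xCr replicate 2, while 10 of 21 Pcdhg genes and 5 of 7 Pcdha genes were highest in GPC6 replicate 1. Whether the clusters differ in this was not tested. At the low end, 24 of the 61 were lowest in 3xCr replicate 4 (22.2% of all genes) and 13 in GPC6 replicate 4 (15.6%), of which 11 were Pcdhg genes. In GPC6 replicate 1, 7 of the 61 (11.5%) were lowest, against 31.3% of all genes.

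**Figure D3:**
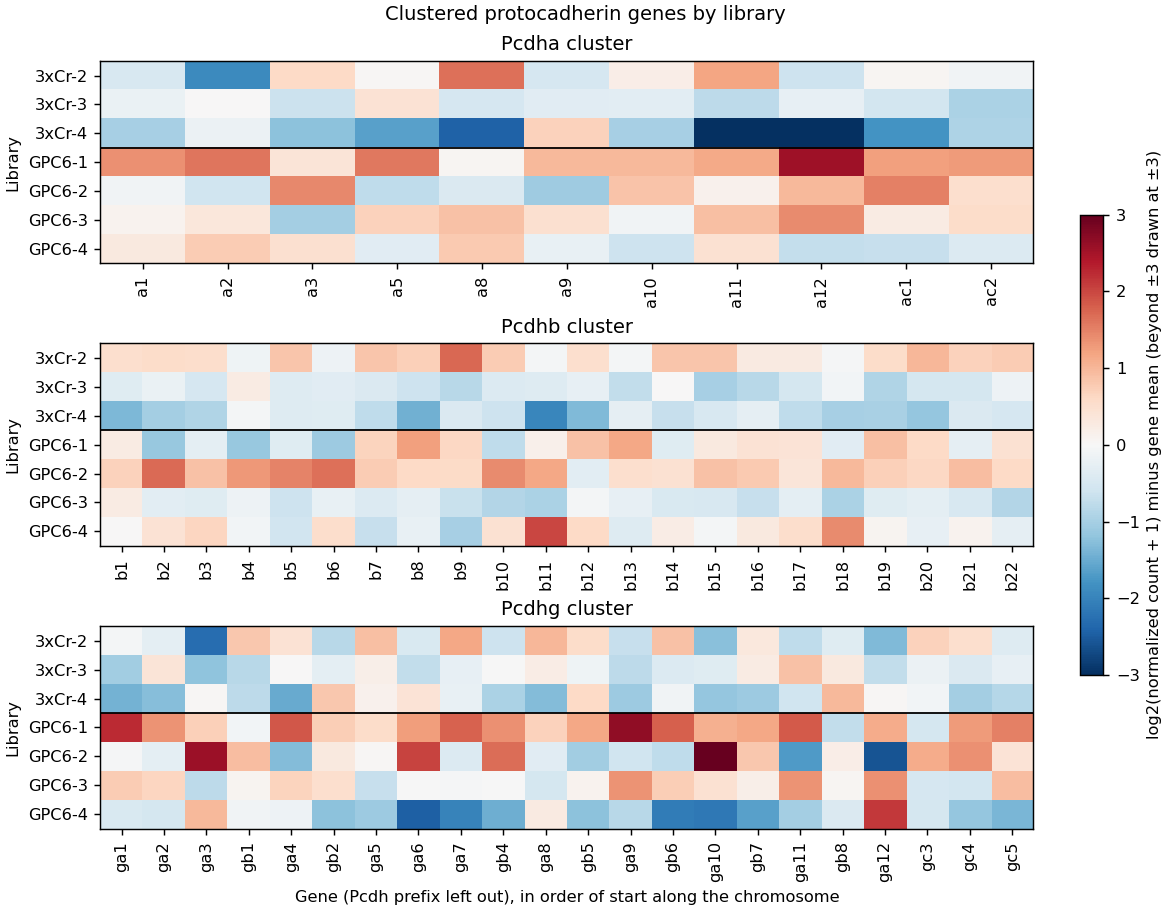
Clustered genes in the order of their starts along mouse chromosome 18 (columns) by library (rows, 3xCr above the line and GPC6 below); colour gives log2(normalized count + 1) minus the mean of the gene over 7 libraries, with values beyond ±3 drawn at ±3. GPC6 replicate 1 is high for many Pcdha and Pcdhg genes, 3xCr replicate 2 and GPC6 replicate 2 for many Pcdhb genes, and GPC6 replicates 2 and 4 have single Pcdhg genes far above their neighbours.

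The Pcdha cluster (mouse build GRCm38, chromosome 18, 36930285 to 37187663) was the least abundant. Its 12 genes summed to 226, 141 and 102 normalized counts in 3xCr and to 527, 324, 292 and 192 in GPC6. The sums overlapped, with GPC6 replicate 4 below 3xCr replicate 2. Pcdha12 had 5.48, 7.44 and 0 in 3xCr and 57.2, 18.8, 25.7 and 5.14 in GPC6. It was above the 3xCr range in GPC6 replicates 1, 2 and 3 but not in replicate 4, and the value of 0 came from a library where no reads allow up to 4.14 normalized counts. The log2 fold change was 2.46 (SE 1.05), with an unadjusted p of 0.048 and an adjusted p of 0.73 by limma, and it was 1.49 without 3xCr replicate 4. Pcdha10, the Pcdha gene of highest mean outside the C-type, had 29.6, 20.5 and 12.4 in 3xCr and 51.0, 47.4, 23.9 and 16.5 in GPC6, with a log2 fold change of 0.65 (SE 0.57) within the spread between libraries. 3xCr replicate 4 held 0 reads on Pcdha12 but 38 on Pcdhac2, so reads of the constant exons that these genes share were not given to each of them, and the rule for such reads is not given in the sources used here.

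Pcdhb genes (chromosome 18, 37264998 to 37521419) are single exon genes without constant exons. Their sums were 2489, 1074 and 902 normalized counts in 3xCr and 1577, 2950, 1011 and 1759 in GPC6, highest in GPC6 replicate 2 and 3xCr replicate 2, as for Pcdhgc3. The most abundant member by mean, Pcdhb9, had 554, 93.0 and 123 in 3xCr and 258, 247, 105 and 83.3 in GPC6. In 3xCr replicate 2 this gene alone gave 22.2% of the Pcdhb reads (1010 of 4541, 95% Wilson interval 21.1% to 23.5%, which like all such intervals here covers counting error only), where equal use of the 22 genes would give 4.55% each. Its log2 fold change was -0.27 (SE 0.69), and it was 0.52 without 3xCr replicate 2. Pcdhb11 had the largest log2 fold change of the cluster, 1.40 (SE 0.78, adjusted p 0.73 by limma), with 43.8, 34.4 and 11.0 in 3xCr and 51.0, 104, 23.1 and 186 in GPC6. Its groups overlapped, since GPC6 replicate 3 was below 2 of the 3 control libraries. Pcdhb genes are close paralogs, and reads that fit several of them could have been split or dropped in counting.

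In the Pcdhg cluster (chromosome 18, 37661775 to 37841873) Pcdhgc3 was the most used gene in every library. Outside the C-type the most used gene varied between animals. It also varied in Pcdhb (Pcdhb9 or Pcdhb10) and in Pcdha without C-type (Pcdha3, Pcdha10 or Pcdha12). In 3xCr replicate 4 Pcdha10 and Pcdha9 were tied, with 9 of 35 reads each. Leaving out its C-type genes, the Pcdhg cluster holds 12 Pcdhga and 7 Pcdhgb genes. Over the 18 tested ones, the residual standard deviation of log2 values within groups had a median of 1.19, against 0.75 for the 3264 genes with means in the same range, and 5 of the 18 were in the most variable 10% of all genes tested, where 19.1% of those 3264 genes were. For Pcdhb the same medians were 0.78 and 0.67 (5147 genes), for Pcdha without its C-type genes 1.03 and 0.98 (1334 genes), and for the non-clustered genes 0.71 and 0.47 (11798 genes). The most variable 10% held 2 of the 6 tested Pcdha genes without C-type (29.4% of the genes in their range), 0 of 21 Pcdhb genes (15.9%) and 1 of 12 non-clustered genes (8.20%). These are descriptions with no test.

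Pcdhga10 had 21.9, 40.9 and 23.5 normalized counts in 3xCr and 113, 562, 73.6 and 11.3 in GPC6. GPC6 replicate 2 alone held 66.4% of its counts over the 7 libraries, while GPC6 replicate 4 was below all controls. The log2 fold change of 1.61 (SE 1.13) was 0.72 without GPC6 replicate 2, and 2.71 by edgeR and 2.74 by DESeq2, with unadjusted p of 0.047 and 0.0071. Pcdhga3 had 11.0, 24.2 and 58.0 in 3xCr and 94.3, 341, 32.8 and 112 in GPC6, with 50.6% of its counts in GPC6 replicate 2. Its log2 fold change was 2.02 (SE 0.83), with an unadjusted p of 0.043 and an adjusted p of 0.73 by limma, and GPC6 replicate 3 lay within the 3xCr range. Pcdhga9 had 14.8, 14.0 and 11.0 in 3xCr and 162, 15.8, 63.9 and 13.4 in GPC6. Here GPC6 replicate 1 held 55.0% of the counts, so the library that stood out was not the one of Pcdhga10. This gave a log2 fold change of 1.50 (SE 0.88), which was 0.82 without GPC6 replicate 1 and 2.23 by edgeR and 2.27 by DESeq2, with unadjusted p of 0.046 and 0.013. Pcdhga5 was the Pcdhg gene with the lowest log2 fold change, -0.70 (SE 0.58), with 31.8, 18.6 and 18.0 in 3xCr and 24.7, 16.8, 9.76 and 7.20 in GPC6, and its groups overlapped.

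How evenly the genes of a cluster were used can be given as an effective number, the inverse of the sum of squared read shares, which equals the number of genes when all are used alike. For the 19 Pcdhga and Pcdhgb genes it was 10.5, 14.9 and 12.4 in 3xCr and 16.1, 6.19, 14.8 and 6.69 in GPC6. GPC6 replicates 2 and 4 were below all controls and GPC6 replicate 1 was above all of them, so the spread within GPC6 enclosed the 3xCr range. In GPC6 replicate 2, Pcdhga10 gave 569 of 1875 reads on these genes, 30.3% (95% Wilson interval 28.3% to 32.5%), followed by Pcdhga3 with 18.4% and Pcdhga6 with 12.2%. In GPC6 replicate 4, Pcdhga12 gave 202 of 680 reads, 29.7% (26.4% to 33.3%), followed by Pcdhga3 with 16.0%. Equal use would give 5.26% each. The most used gene of each of these tumors was scarce in the other, while Pcdhga3 came next in both. GPC6 replicate 2 held 6.92 normalized counts of Pcdhga12 where GPC6 replicate 4 held 208. For Pcdhga10 the values were 562 and 11.3. Among the other 5 libraries the most used genes were Pcdhgb1, Pcdhgb7, Pcdhgb2, Pcdhgb6 and, as in GPC6 replicate 4, Pcdhga12 (GPC6 replicate 3), and took 9.81% (Pcdhgb6 in GPC6 replicate 1) to 18.0% (Pcdhgb1 in 3xCr replicate 2). Correction of the shares for exon length moved the effective numbers of GPC6 replicates 2 and 4 only to 6.16 and 7.13.

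**Figure D4:**
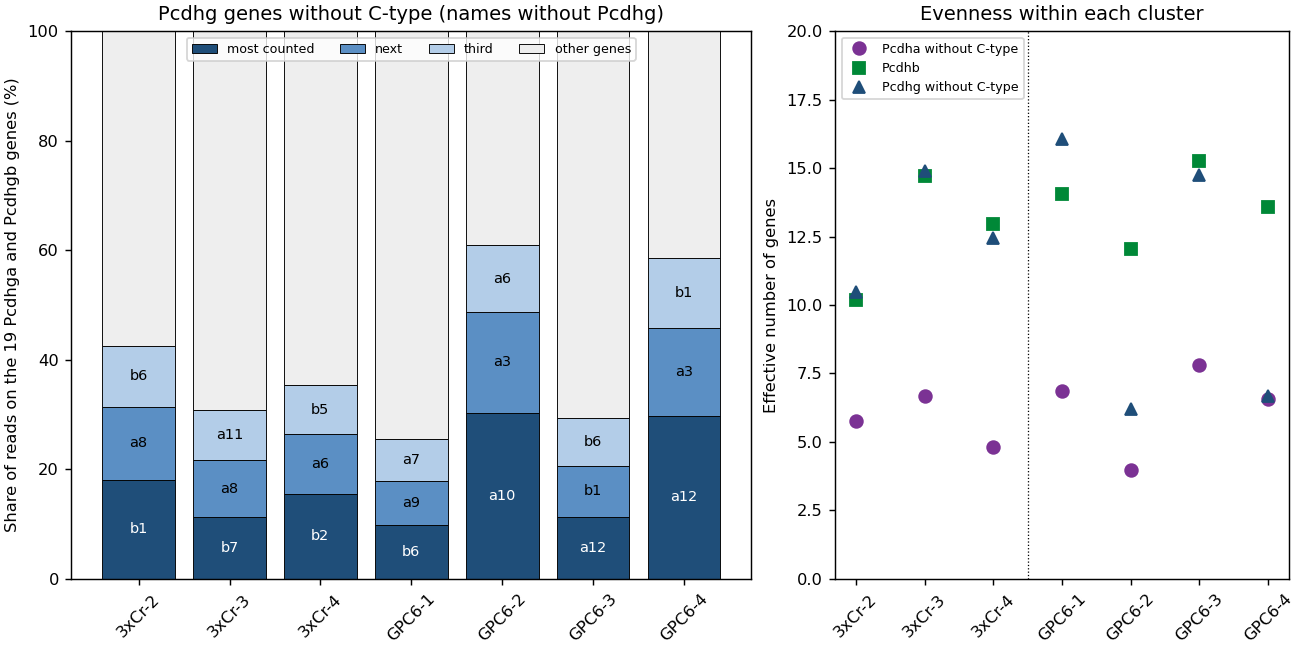
Left, share of the reads on the 19 Pcdhga and Pcdhgb genes (%) taken by the 3 most counted genes in each library. Right, effective number of genes used in each library for Pcdha and Pcdhg without C-type genes and for Pcdhb, 3xCr left of the dotted line; for Pcdhg it falls to 6.19 and 6.69 in GPC6 replicates 2 and 4 and lies between 10.5 and 16.1 elsewhere.

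The other clusters are given for comparison, with no test of the difference. For the 22 Pcdhb genes the effective number was 10.2, 14.7 and 12.9 in 3xCr and 14.1, 12.03, 15.3 and 13.6 in GPC6, lowest in 3xCr replicate 2 where Pcdhb9 led. For the 10 Pcdha genes without C-type it was 5.77, 6.67 and 4.80 in 3xCr and 6.85, 3.98, 7.82 and 6.56 in GPC6. GPC6 replicate 2 was again lowest, with Pcdha3 at 37.1% of 159 reads (95% Wilson interval 30.0% to 44.8%), but these shares rest on 35 to 227 reads per library.

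Among the non-clustered genes, which summed to 5350, 4494 and 3238 normalized counts in 3xCr and to 6138, 6663, 5283 and 5231 in GPC6, Pcdh10 was the most abundant. It takes part in the growth of axons through the striatum. It had 1501, 1389 and 438 normalized counts in 3xCr and 1629, 1678, 1725 and 2044 in GPC6. Every GPC6 library was above every 3xCr library, which held for 1 of the 61 tested members and for 2.8% of all genes tested, and no member was below in every library (3.52% of all genes tested). The log2 fold change was 0.86 (SE 0.42), with an unadjusted p of 0.076 and an adjusted p of 0.73 by limma, and without 3xCr replicate 4 it was 0.29.

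Pcdh8, an activity-induced synaptic protocadherin also known as arcadlin, had the largest log2 fold change of the non-clustered genes. It had 55.9, 44.6 and 6.91 normalized counts in 3xCr and 351, 51.4, 397 and 64.8 in GPC6. GPC6 replicates 1 and 3 were far above the rest and GPC6 replicate 2 lay within the 3xCr range. These were also the 2 libraries with the highest sums of neuron markers, and the part of those markers in the difference was not tested. Its log2 fold change was 2.44 (SE 0.99), with an unadjusted p of 0.039 and an adjusted p of 0.73 by limma, and it was 1.54 without 3xCr replicate 4. The 250 bases upstream of Pcdh10 and Pcdh8 are given because these genes had, of the non-clustered members, the separated groups and the largest difference. They come from RefSeq on GRCm38.p6, at chr3:45378148-45378397 on the plus strand for Pcdh10 and at chr14:79771313-79771562 on the minus strand for Pcdh8, 5′ to 3′. Both lie outside the annotated exons of protocadherin genes, and exons of other genes were not checked. Capitals mark a GC box (GGGCGG, here on the opposite strand) in Pcdh10 and a TATA box (TATAAA) in Pcdh8.
Pcdh10: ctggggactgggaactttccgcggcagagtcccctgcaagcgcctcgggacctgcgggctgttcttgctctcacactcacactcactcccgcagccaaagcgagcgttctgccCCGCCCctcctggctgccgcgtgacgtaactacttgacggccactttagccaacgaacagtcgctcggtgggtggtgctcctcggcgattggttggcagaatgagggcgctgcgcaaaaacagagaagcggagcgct
Pcdh8: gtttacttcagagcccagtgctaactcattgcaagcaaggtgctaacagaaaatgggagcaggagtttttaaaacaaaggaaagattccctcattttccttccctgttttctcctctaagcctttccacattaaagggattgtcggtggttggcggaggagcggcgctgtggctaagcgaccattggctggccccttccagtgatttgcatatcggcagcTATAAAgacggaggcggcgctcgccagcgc
The window of Pcdh10 had a GC content of 63.2% and that of Pcdh8 51.2%, against a median of 52.4% over 32851 promoter windows of the same length. On either strand, TATAAA was found in 2 of the 9 protocadherin windows in the table (Pcdh8 and Pcdh15) and in 12.4% of all windows, and GGGCGG in 4 of 9 (Pcdh10, Pcdh17, Pcdh18 and Pcdh19) and in 32.7%. The letters CCAAT were in 8 of 9, those of Pcdh8 and Pcdh10 included, and in 33.8% of all (not capitalised here). TGACGTCA, the cAMP response element, was in 0 of 9 and in 1.55% of all. Matches of this kind describe letters in a window and not a bound site.

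Some of the remaining non-clustered genes were highest or lowest in the same libraries as markers of other cell types, or stood out in single libraries. Pcdh15, a tip link protein of hair cells that is also made by oligodendrocyte precursors, had 748, 614 and 308 in 3xCr and 156, 1095, 700 and 585 in GPC6. It was highest in GPC6 replicate 2 and lowest in GPC6 replicate 1, as was the sum of OPC markers, and its log2 fold change was -0.02 (SE 0.65). Pcdh18, which binds the adaptor Dab1, had 55.9, 51.2 and 282 in 3xCr and 29.4, 49.4, 78.1 and 80.2 in GPC6. Its log2 fold change of -0.75 (SE 0.67) rested on 3xCr replicate 4, since it was 0.04 without that library. Pcdh12, which is made by endothelial cells, had 10.4, 30.7 and 58.0 in 3xCr and 7.73, 45.4, 56.8 and 27.8 in GPC6, with a log2 fold change of 0.05 (SE 0.82). Its lowest libraries, GPC6 replicate 1 and 3xCr replicate 2, were also those with the lowest sums of the 6 endothelial markers, 1473 and 865 normalized counts against 1687 to 2847 elsewhere. The part of the OPC and endothelial markers in the levels of Pcdh15 and Pcdh12 was not tested.

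Pcdh1, an adhesion protein also studied in airway epithelium, had 399, 331 and 369 in 3xCr and 753, 517, 597 and 364 in GPC6, above the 3xCr range in 3 of 4 libraries. The log2 fold change was 0.56 (SE 0.27, unadjusted p 0.075, adjusted p 0.73 by limma). Pcdh9 had 498, 432 and 250 in 3xCr and 898, 703, 404 and 432 in GPC6, and Pcdh7 had 759, 433 and 523 in 3xCr and 881, 999.8, 518 and 687 in GPC6. Both genes are strong in neurons of the brain, and their log2 fold changes were 0.61 (SE 0.37) and 0.43 (SE 0.30), with overlapping groups. Pcdh17, which acts at presynaptic terminals of corticobasal circuits, had 658, 603 and 457 in 3xCr and 717, 923, 413 and 616 in GPC6, a log2 fold change of 0.18 (SE 0.30). Pcdh20 was on the other side of 0, with 258, 420 and 334 in 3xCr and 328, 328, 148 and 199 in GPC6 and a log2 fold change of -0.48 (SE 0.35). The X-linked genes Pcdh11x and Pcdh19, of which the latter is mutated in a form of epilepsy, differed little. Pcdh11x ranged from 42.8 to 221 in 3xCr and from 66.9 to 177 in GPC6, with a log2 fold change of 0.37 (SE 0.60). For Pcdh19 the ranges were 67.9 to 185 and 62.8 to 226, with a log2 fold change of -0.11 (SE 0.53).

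**Figure D5:**
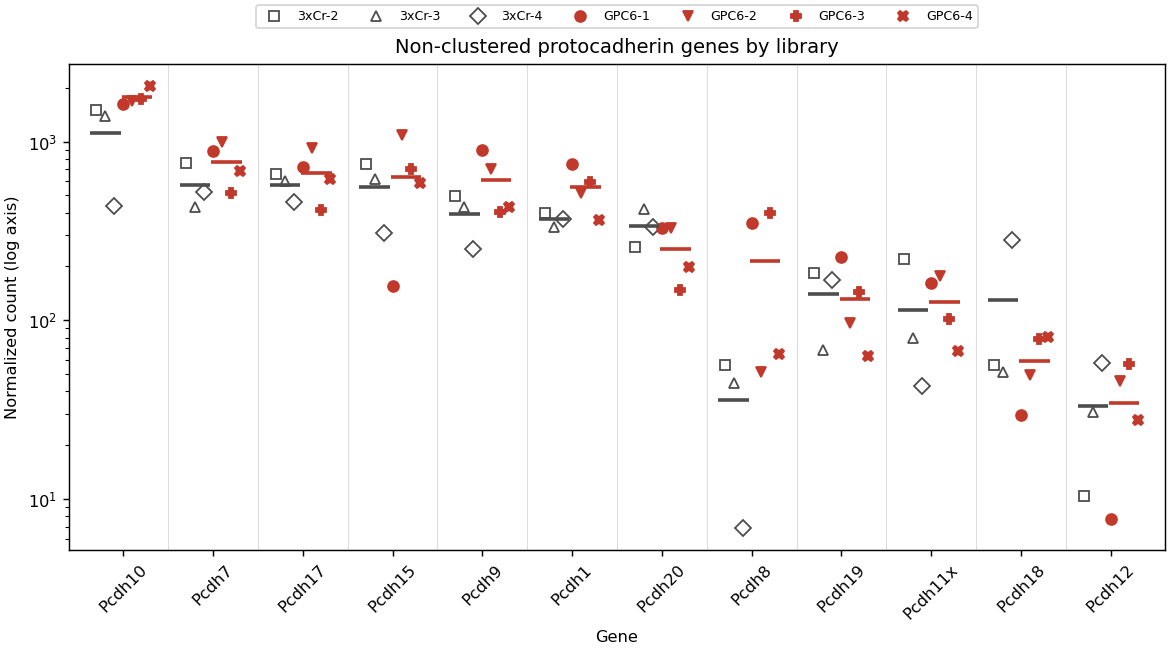
Normalized counts (log axis) of the 12 non-clustered protocadherins in each library, ordered by mean, open grey symbols for 3xCr and filled red symbols for GPC6, with short lines at the group means. Pcdh10 is the one gene whose GPC6 values (1629 to 2044) all lie above its 3xCr values (438 to 1501), and Pcdh8 splits GPC6 into replicates 1 and 3 (351 and 397) and replicates 2 and 4 (51.4 and 64.8).

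Genes that act on or with protocadherins were described beside them. Of 14 genes for the choice and silencing of clustered promoters, such as Ctcf and the cohesin subunits that loop promoters to their enhancers, 13 were tested. Of these, 0 had an unadjusted p under 0.05 by limma (4.66% of all genes tested), and likewise 0 by edgeR (6.7%) and by DESeq2 (12.1%). Their median log2 fold change was 0.14. Ctcf stood at 842 ± 99.3 normalized counts (SD, n = 3) in 3xCr and 860 ± 114 (SD, n = 4) in GPC6. Setdb1, which silences clustered genes through histone methylation, was the furthest of the list from 0 at a log2 fold change of 0.51 (SE 0.50), with GPC6 replicate 4 at 2202 against 436 to 918 in the other 3 libraries of its group. Of 19 genes for partners and signalling, 3 had an unadjusted p under 0.05 by limma, all higher in GPC6 (2.74% of all genes tested), and none passed adjustment. These were Wasf1 (1.08, SE 0.38) and Nckap1 (0.71, SE 0.29), both of the WAVE complex that binds protocadherin tails and branches actin, and the synaptic adhesion gene Nlgn1 (1.05, SE 0.42), which protocadherins can bind; the list had a median of 0.18. Wasf1 had 1112, 785 and 356 in 3xCr and 1810, 1231, 1378 and 1381 in GPC6, and its groups did not overlap. Across the 19 genes, 2 were above the 3xCr range in every GPC6 library (Wasf1 and the kinase gene Ptk2, 2.8% of all genes tested) and 2 were below it (3.52%), Brk1 of the same WAVE complex (1863 to 1936 in 3xCr, 1501 to 1761 in GPC6) and Axin1 (672 to 829 and 542.5 to 658). Among 10 other large cadherins, 8 were tested and 2 had an unadjusted p under 0.05 by limma, both higher in GPC6. Of all genes tested 2.74% were called higher and 4.66% in either direction. The 2 were Celsr2 (1.47, SE 0.60) of planar cell polarity and Fat3 (0.80, SE 0.33). Neither passed adjustment, and the list median was 0.57. Celsr2 had 508, 451 and 164 in 3xCr and 2079, 413, 1147 and 755 in GPC6, highest in the libraries with the highest sums of neuron markers. The part of those markers in this difference was not tested. Across the 8 genes, 1 was above the 3xCr range in every GPC6 library (2.8% of all genes tested) and 0 were below it (3.52%). That 1 was Fat3, with 109 to 171 in 3xCr and 187 to 382 in GPC6. Without GPC6 replicates 1 and 2 together, 0 of the 19 partner genes had an unadjusted p under 0.05 by limma (6.09% of all genes tested).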

How the data were processed

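The deposited signal values were read counts per gene that the authors had divided by 1 size factor per library with DESeq2 1.20.0, after alignment with STAR 2.5.0a to mm10, per the study's methods and processing notes. The gene annotation and the rule for reads shared between genes are not given in the sources used here. Rows whose gene names had become dates (25, 0.254% to 0.361% of reads) were left out. Whole reads were recovered for 100% of values within 0.01 of a whole number. Genes with a mean of at least 10 normalized counts (14782) were tested two-sided with limma 3.58.1 (mean trend, Benjamini-Hochberg) on log2(normalized count + 1), a scale that understates changes of low genes. Tests with edgeR 4.0.16 (quasi-likelihood) and DESeq2 1.42.0 on recovered reads, other scalings, pseudocounts, filters and weights, and each library left out were alternatives, and the fits were checked on simulated data. Depth was 7197692 to 18879762 reads.

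The members and gene lists were chosen with earlier results of these data known. Genes were named if they were non-clustered, C-type, had an unadjusted p under 0.05, had the highest mean or the largest or smallest log2 fold change of their cluster, held over 50% of their counts in 1 library or led the clustered reads of a library. Pcdha3, Pcdhb5, Pcdhb10, Pcdhga6, Pcdhga12, Pcdhgb1, Pcdhgb2, Pcdhgb6, Pcdhgb7 and the genes not tested were named after their values were seen, as were the genes named from the lists of partners. Positions and upstream sequences came from RefSeq (GRCm38.p6) and exon lengths from GENCODE M21. Replicates were separate brains, and p-values measure the spread between these tumors.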

Additional observations from a re-analysis of the deposited data

Results flagged for a closer look

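In a group of 4 libraries, a value was marked when its gap to the nearest library, as a share of the group's range, exceeded Dixon's 95% critical value. Of 68 quantities looked at in GPC6, 2 met this, where chance alone would mark 3.4. Pcdhgc3 stood at 4996 normalized counts in GPC6 replicate 2, against 1604 to 1630 in the other 3 libraries of the group. Pcdhb5 stood at 428 in the same library, against 98.5 to 117 in the others. The same library had Gpc6 near the 3xCr level (263 normalized counts) and the highest sum of OPC markers (74713); their part in these values was not tested.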

How the results depend on the processing

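Of the 24 named genes with a fold change, 14 kept their direction in every setting. The medians for clustered and non-clustered genes stayed above 0 throughout, at 0.24 to 0.82 and 0.09 to 0.46 with 1 library left out. By limma 4 protocadherins had an unadjusted p under 0.05 (4.66% of all genes). The number was 6 by edgeR (6.70%), 10 by DESeq2 (12.1%) and 0 by limma voom (3.38%). After adjustment DESeq2 called 9 of the 9018 genes with an adjusted p and 0 of 10 protocadherins. With library weights it was 12 (34.5%), and 6 protocadherins and 1962 of all genes passed adjustment. It was 2 without both GPC6 replicates 1 and 2 (6.09%). With 1 library left out it was 0 to 8. It was 0 without GPC6 replicate 1 (3.14%), 1 without 3xCr replicate 4 (0.808%) and 8 without GPC6 replicate 4 (7.83%). Without 3xCr replicate 2 (7.68%), 3xCr replicate 3 (2.56%), GPC6 replicate 2 (9.45%) or GPC6 replicate 3 (2.61%) it was 2 or 3. The list counts below have these same shares of all genes beside them. Of the partner genes, 3 had an unadjusted p under 0.05, against 1 by edgeR, 8 with library weights, 0 without GPC6 replicates 1 and 2, and 0 to 5 with 1 library left out (0 without 3xCr replicate 4 and 5 without 3xCr replicate 2). For the other large cadherins the number was 2, against 0 by voom, 5 with weights and 0 to 3 with 1 library left out (0 without 3xCr replicate 3, 3xCr replicate 4 or GPC6 replicate 3). For promoter choice it was 0, and 1 without GPC6 replicates 1 and 2. The causes were not tested.

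The log2 fold change of Pcdh15, near 0, turned to 0.029 at equal totals, 0.17 by edgeR, 0.20 by DESeq2, 0.0019 by voom and 0.14 with weights. With weights, Pcdh17 went to -0.35, Pcdh18 to 0.34, Pcdh19 to 0.78, Pcdhb9 to 0.083 and Pcdhb11 to -0.050. Without GPC6 replicates 1 and 2, Pcdh11x went to -0.15, Pcdh15 to 0.30, Pcdh17 to -0.17 and Pcdhgc4 to -0.55. With 1 library left out, the range was -0.16 to 1.01 for Pcdh11x, -0.59 to 0.62 for Pcdh12, -0.40 to 0.55 for Pcdh15, -1.18 to 0.040 for Pcdh18, -0.57 to 0.19 for Pcdh19, -0.67 to 0.018 for Pcdhgc3 and -0.76 to 0.52 for Pcdhb9.

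Replicate numbers 2, 3 and 4 occur in both groups. Deviations of same-numbered libraries from their group means correlated at -0.19, 0.12 and 0.30 over genes. Pairs with different numbers ran from -0.46 to 0.50. With so few libraries per group, these values cannot tell whether same-numbered libraries share more than a number. With a replicate block, 2 protocadherins and 1 other large cadherin had an unadjusted p under 0.05 by limma (4.59% of all genes). In that fit 0 protocadherins passed adjustment, and the log2 fold change of Pcdh15 was 0.55.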

Other observations

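The 7 genes that were not tested had means under 10 normalized counts. Pcdhgb8, annotated as a pseudogene, had 3.09 to 12.4 normalized counts and Pcdhb1 1.38 to 8.89. Pcdha8 had 29 reads in 3xCr replicate 2, 10 in GPC6 replicate 3 and 0 to 8 elsewhere, and its highest value, 15.9 normalized counts, was in that control library. Pcdha1 ranged from 2.76 to 18.5 and Pcdha9 from 2.96 to 15.5, each highest in GPC6 replicate 1. The row listed as Pcdha7-g had 2 reads in each of 2 libraries and 0 in the other 5. At least 10 reads were found on 35 to 52 of the 56 clustered genes in a library, fewest in 3xCr replicate 4, and on 11 or 12 of the 12 non-clustered genes.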
